A study of Mus musculus with 4 samples.

Results

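Complement components and one complement receptor that myeloid cells make were followed through sorted liver cells of mice on a steatohepatitis diet. The set was chosen by gene symbol and holds 7 genes, C1qa, C1qb, C1qc, C3, C3ar1, Cfb and Cfp, of the 27998 genes counted in all 4 libraries. All 7 symbols were matched, each to 1 identifier.

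The 2 groups were male wild-type C57BL/6 mice that received a methionine- and choline-deficient diet (MCD) for 6 weeks, with 2 libraries, and mice of the same kind that received a normal control diet (NCD) for the same time, with 2 libraries. All mice were 8 weeks old when purchased. Single live (7AAD-) CD45+ Ly6G- liver cells of intermediate CD11b were sorted and sequenced by a droplet method that counts unique molecular identifiers (UMIs) at the 3' ends of transcripts. The F4/80 gate is given as high in the sample labels and as low in the series text. Whether a library came from 1 mouse or from several is not given, so p-values measure only the spread between these libraries.

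C1q, the recognition unit of the classical pathway, is built from the A, B and C chains that C1qa, C1qb and C1qc encode, and in most tissues macrophages are its main source. C3, the protein on which all activation routes converge, is made in bulk by hepatocytes and also by myeloid cells. Factor B (Cfb) forms the alternative pathway convertase with cleaved C3, properdin (Cfp) stabilises that convertase, and C3ar1 is the receptor for the C3a fragment.

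The libraries differed in depth with diet. They held 32975974 and 37772284 UMIs in MCD replicates 1 and 2, against 7518597 and 7428431 in NCD replicates 1 and 2, and the median retained cell had 12038 and 12300 UMIs on MCD, against 2173 and 2253.5 on NCD. More than 10% mitochondrial UMIs removed 11.6% and 9.44% of MCD barcodes, against 37.2% and 33.6% of NCD barcodes, which left 2950 and 3138 MCD cells and 1735 and 1786 NCD cells. Any pair of libraries shared 4 to 12 barcodes before filtering. Levels below are CPM, the UMIs of a gene per 1000000 UMIs of the same cells in the same library. The sorted gate held more than monocytes and macrophages: dendritic, eosinophil-like, endothelial-like and lymphoid cells were found by their markers, and the complement genes took no part in that clustering. Ly6Chi-like monocytes numbered 739 and 871 on MCD and 427 and 455 on NCD, and Ly6Clo-like monocytes 168 and 235 on MCD and 174 and 188 on NCD.

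All 7 genes are protein coding and lie on the reverse strand of GRCm38. C1qb (ENSMUSG00000036905, chr4:136880129-136886187), C1qc (ENSMUSG00000036896, chr4:136889804-136893065) and C1qa (ENSMUSG00000036887, chr4:136895917-136898803) sit side by side within 18675 bases. C3 (ENSMUSG00000024164) is at chr17:57203970-57228136 and Cfb (ENSMUSG00000090231) is at chr17:34856374-34862518. C3ar1 (ENSMUSG00000040552) is at chr6:122847138-122856161 and Cfp (ENSMUSG00000001128) is at chrX:20925454-20931555.

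Promoter windows of 300 bases, from 250 before to 50 after the RefSeq gene start on GRCm38.p6, were matched for C1qb, C1qc, C3, C3ar1 and Cfp. A pair of C1q promoters is shown because the chains are set against each other below, and those of C3 and Cfp because these genes were higher on MCD in several cell classes. Capitals mark GAGGAA, the core bound by the myeloid factor PU.1, on either strand (its reverse complement reads TTCCTC), except in C3, where they mark the C/EBP motif TTGCGNAA. The windows are chr4:136886151-136886450 for C1qb, chr4:136892865-136893164 for C1qc, chr17:57228087-57228386 for C3 and chrX:20931506-20931805 for Cfp, all printed from the reverse strand.
C1qb: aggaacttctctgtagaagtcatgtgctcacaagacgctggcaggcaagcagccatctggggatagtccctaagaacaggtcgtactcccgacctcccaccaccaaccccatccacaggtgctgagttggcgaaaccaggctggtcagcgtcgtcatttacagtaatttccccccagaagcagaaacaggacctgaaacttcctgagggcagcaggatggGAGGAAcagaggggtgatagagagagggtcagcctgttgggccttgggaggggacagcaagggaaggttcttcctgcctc
C1qc: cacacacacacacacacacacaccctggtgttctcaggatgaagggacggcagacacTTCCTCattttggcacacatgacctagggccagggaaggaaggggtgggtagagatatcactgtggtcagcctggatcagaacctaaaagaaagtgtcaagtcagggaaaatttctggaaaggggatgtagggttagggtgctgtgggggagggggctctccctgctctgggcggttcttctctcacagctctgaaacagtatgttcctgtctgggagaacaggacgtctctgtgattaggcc
C3: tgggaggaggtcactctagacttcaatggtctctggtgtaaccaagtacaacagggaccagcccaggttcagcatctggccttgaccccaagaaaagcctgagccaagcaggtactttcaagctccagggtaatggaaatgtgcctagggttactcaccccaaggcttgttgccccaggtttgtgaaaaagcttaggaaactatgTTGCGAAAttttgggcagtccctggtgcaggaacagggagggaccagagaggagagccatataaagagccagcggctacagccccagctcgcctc
Cfp: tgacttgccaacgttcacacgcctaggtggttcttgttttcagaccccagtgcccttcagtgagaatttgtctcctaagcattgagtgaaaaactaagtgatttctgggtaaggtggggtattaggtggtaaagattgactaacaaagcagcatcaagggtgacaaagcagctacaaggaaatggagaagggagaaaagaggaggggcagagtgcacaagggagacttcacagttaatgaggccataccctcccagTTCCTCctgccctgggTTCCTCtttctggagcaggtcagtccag
The PU.1 core was in 3 of the 5 promoters, those of C1qb, C1qc and Cfp, and in 28.3% of all 32851 promoter windows. The C/EBP motif was in that of C3 and in 0.798% of all windows. The MAF recognition motif TGCTGA was in 3 of 5 (C1qb, C3, C3ar1; 19.5% of all), the AP-1 motif TGANTCA in that of C3ar1 (7.81%), the NF-kB motif in that of C1qc (8.46%), and the IRF element in none (3.44%). Each motif was searched on both strands. A match describes these letters in the window and shows no binding.

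The 3 C1q chains were concentrated in macrophages in both diets, but in different clusters. In the first clustering (Leiden resolution 1) the highest levels on MCD were in lipid-associated macrophage-like cells (252 and 173 cells). This class was named from markers among its leading genes such as Spp1, Gpnmb, Cd63 and Lpl. These cells had 306 and 668 CPM of C1qa, 782 and 1228 CPM of C1qb, and 259 and 510.4 CPM of C1qc in MCD replicates 1 and 2. On NCD, where this class had 0 and 3 cells, the highest levels were in macrophage-like cells (71 and 56 cells), with 993 and 1089 CPM of C1qa, 1103 and 769.9 CPM of C1qb, and 894 and 1104 CPM of C1qc. MCD replicate 2 was above replicate 1 for each chain. The MCD peak depended on the clustering. At Leiden resolution 2.0, 142 and 130 macrophage-like MCD cells held 1941 and 2163 C1qb UMIs. The lipid-associated class (186 and 130 cells) then held 1383 and 1846. With complement genes kept in the clustering, a macrophage-like cluster of 45 and 61 MCD cells held 1865 and 2606. The 356 and 257 lipid-associated cells of that clustering held 1706 and 2312.

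In the first clustering most C1q UMIs of a library came from the lipid-associated class on MCD and the macrophage-like class on NCD. Lipid-associated macrophage-like cells held 62.4% and 63.2% of the C1qa UMIs, 67.8% and 59.6% of the C1qb UMIs and 64.3% and 63.0% of the C1qc UMIs in the MCD libraries. Macrophage-like cells held 57.5% and 61.7% of C1qa, 58.4% and 55.8% of C1qb and 51.1% and 64.1% of C1qc UMIs in the NCD libraries. Next in the MCD libraries came unnamed clusters. One, cluster 13 (62 and 80 cells), was led by Cxcl10, Cxcl9 and Ifit3 and had 293 and 240.4 CPM of C1qb. Another, cluster 3 (382 and 409 cells), was led by Saa3, Cxcl2 and Tnf and had 122 and 180.0 CPM.

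Monocytes carried little C1q. Ly6Chi-like monocytes, the inflammatory monocytes newly arrived from blood, had 11.1 and 7.69 CPM of C1qb on MCD and 8.99 and 3.05 CPM on NCD. After thinning every cell to 1000 UMIs, a C1qb UMI was found in 0.678% and 0.807% of Ly6Chi-like monocytes on MCD and in 0.475% and 0.442% on NCD. The same share in NK and innate lymphoid cells, which should lack C1q, was 3.45% and 4.17% of 29 and 24 cells on MCD. On NCD it was 2.5% and 3.23% of 40 and 62 cells. So few cells set no firm background, though no monocyte share lay above these values. Without thinning the monocyte shares were 6.50% and 6.66% on MCD and 1.87% and 0.659% on NCD. Median depths were 13529 and 12735 UMIs on MCD and 1948 and 2004 on NCD in the monocytes, and 6375 and 5428 on MCD and 1408 and 1212 on NCD in the lymphoid cells. In T-cell-like cells of MCD replicate 2 (20 cells) the C1qa level was 381 CPM, of which 1 cell gave 64 of 75 UMIs.

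**Figure D1:**
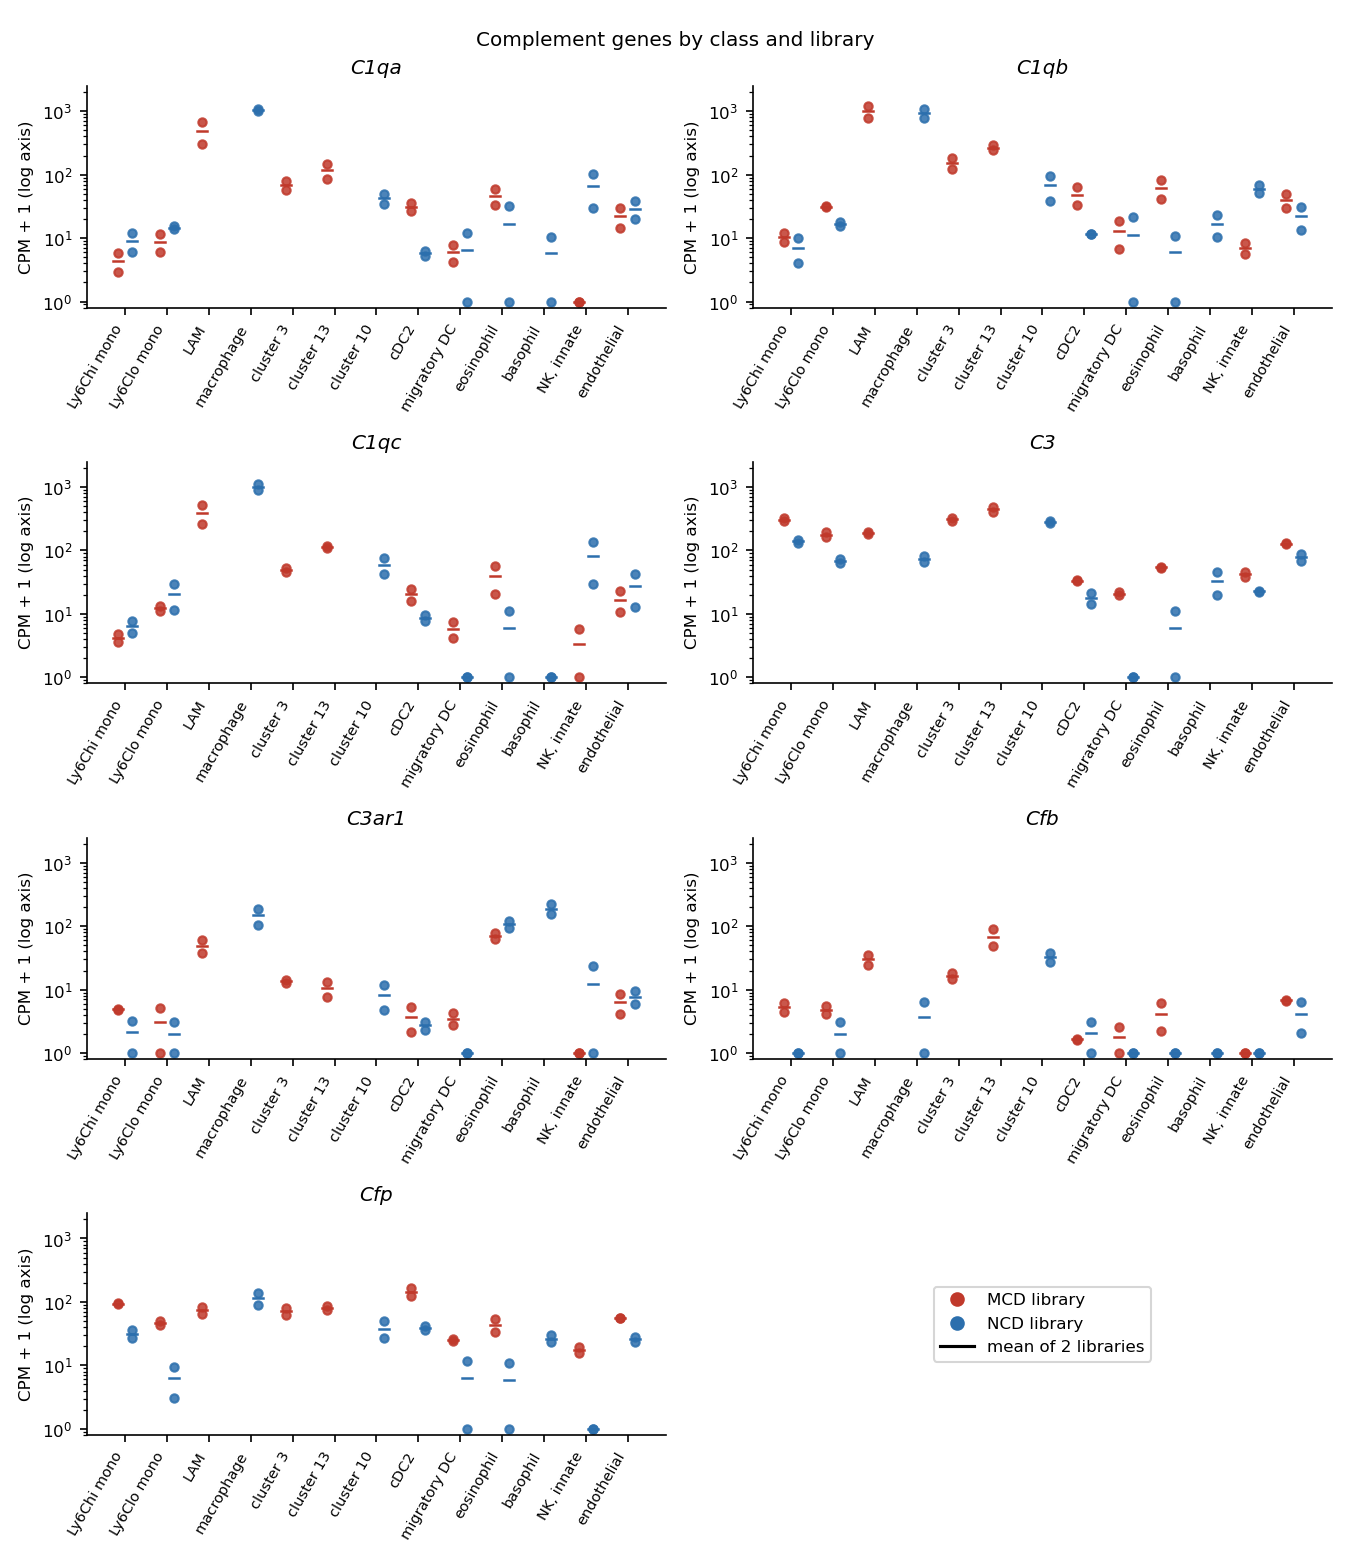
Level of each gene in CPM (log axis of CPM + 1) by cell class, with 1 point per library and a bar at the mean of a diet (LAM, lipid-associated macrophage-like); MCD libraries are drawn left of NCD libraries. In this first clustering the C1q panels peak in lipid-associated macrophage-like cells on MCD (782 and 1228 CPM of C1qb). On NCD they peak in macrophage-like cells (1103 and 769.9 CPM). C3 is spread over monocytes and the unnamed clusters.

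**Figure D2:**
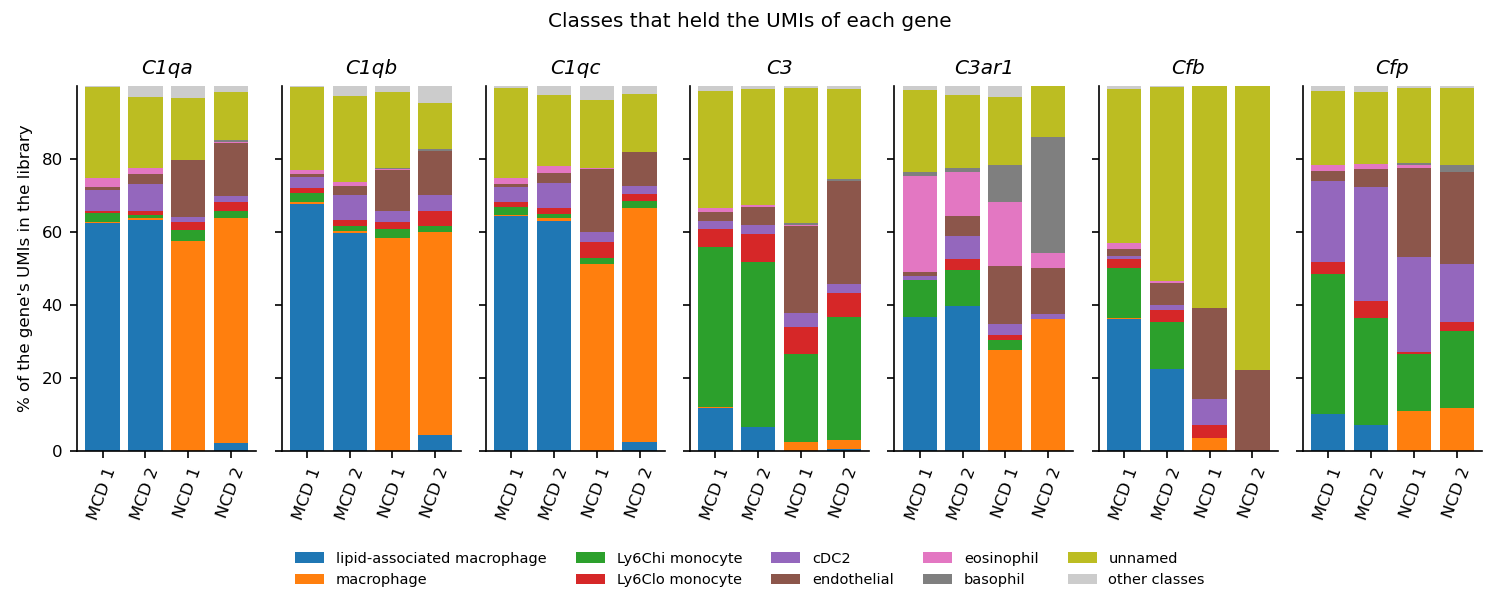
Share of each gene's UMIs in a library, in percent, by the class of cell that held them; MCD libraries are left of NCD libraries. C1q chains come mostly from 1 macrophage class of the first clustering in each diet (59.6% to 67.8% for C1qb on MCD, 55.8% and 58.4% on NCD). C3 comes from Ly6Chi-like monocytes and unnamed clusters.

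To compare the diets, UMIs of all Ly6Chi-like and Ly6Clo-like monocytes, macrophage-like cells and lipid-associated macrophage-like cells of a library were summed and tested with edgeR's quasi-likelihood test. Within the classes, the diets mostly fell into separate clusters of the same name. Of Ly6Chi-like monocytes 1 cluster held 1600 MCD and 14 NCD cells (led by F13a1, Mgst1 and Mmp8) and 1 held 10 MCD and 868 NCD cells (led by Jchain, Fn1 and F13a1). Of Ly6Clo-like monocytes 1 held 402 MCD and 11 NCD cells and 1 held 1 MCD and 351 NCD cells, and of cDC2-like cells 1 held 657 MCD and 13 NCD cells and 1 held 6 MCD and 592 NCD cells. Among endothelial-like cells 1 cluster held 42 MCD and 595 NCD cells, and 2 held 201 and 100 MCD cells with 4 and 0 NCD cells. A difference within a class is therefore a difference between clusters that share its markers. In sums over cells, fewer cells of a type and less RNA per cell cannot be told apart. All 7 genes passed the filter on low values, and 6 of 7 passed an adjusted p of 0.05, where 38.2% of the 10891 genes tested did. Cfb, C3 and Cfp were higher on MCD (3 of 7, where 20.1% of genes were), and C1qa, C1qc and C3ar1 were lower (3 of 7, where 18.0% were). The median log2 difference was 0.59 over the 7 genes and 0.03 over all genes. With scaling by library totals in place of TMM the median of all genes was 0.40, and 3875 genes were called higher and 980 lower, against 2192 and 1964 with TMM.

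The C1q chains parted. C1qa stood at 79.9 and 116 CPM in the MCD sums, against 127 and 104 CPM in the NCD sums, so the libraries overlapped on this scale. Its log2 fold change was -0.61 (SE 0.20, adjusted p = 0.0396). C1qc stood at 68.0 and 89.9 CPM on MCD, against 117 and 105 CPM on NCD, without overlap, with a log2 fold change of -0.86 (SE 0.17, adjusted p = 0.00394). C1qb stood at 206 and 217 CPM on MCD, against 139 and 78.4 CPM on NCD, again without overlap, but with an estimate of 0.59 (SE 0.21) it did not pass (adjusted p = 0.0570). The C1qa call was lost with library totals (-0.24, adjusted p = 0.320) and without NCD replicate 1 (adjusted p = 0.266) or 2 (adjusted p = 0.0583). Over all retained cells, whatever their class, 3 of the 7 genes were called (all higher on MCD, where 26.1% of 12740 genes were called higher and 49.1% in either direction). C1qb was among them, with a log2 fold change of 1.36 (SE 0.30, adjusted p = 0.0105), while C1qa (0.22, adjusted p = 0.427) and C1qc (-0.12, adjusted p = 0.675) did not pass.

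Within the macrophage-like class as a whole the same split appeared. Since each macrophage class at the first clustering held cells of 1 diet, the comparison used a finer clustering (Leiden resolution 2.0), chosen after the classes were seen, in which the macrophage-like class had 142 and 130 MCD cells and 85 and 65 NCD cells. The diets still fell mostly into separate clusters within it, 1 led by Axl, Acp5 and Apoe with 141 and 128 MCD cells, and 1 led by Retnla, Pf4, Cd5l and Folr2 with 83 and 62 NCD cells. Of the listed resident Kupffer cell markers, Clec4f, Folr2, Cd163 and Marco were at 0 in both MCD libraries, and Marco in both NCD libraries. Levels of the other listed markers, among them Timd4, Cd5l and Slc40a1, are not given here. With the diets in separate clusters that had different leading genes, the class compares macrophages of different make-up.

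In this class C1qa had 407 and 699 CPM on MCD, against 849 and 963 CPM on NCD, and C1qc had 326 and 525 CPM on MCD, against 771 and 981 CPM on NCD. Both MCD libraries lay below both NCD libraries. C1qa fell by 0.96 on the log2 scale (SE 0.21, adjusted p = 0.00332) and C1qc fell by 1.29 (SE 0.20, adjusted p = 0.000156). C1qb had 940.4 and 1177 CPM on MCD, against 954 and 720.5 CPM on NCD, with overlap and an estimate of 0.07 (SE 0.18, adjusted p = 0.853). In all, 4 of the 7 genes were called, all lower on MCD (16.1% of 7520 genes were called and 8.26% were lower). Leaving out NCD replicate 2 ended the C1qa call (adjusted p = 0.103).

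The lower C1qa and C1qc levels were not seen in every macrophage cluster. When complement genes were kept in the clustering, 1 macrophage-like cluster held cells of both diets, 45 and 61 on MCD and 69 and 51 on NCD. In it C1qa had 1462 and 1519 CPM on MCD, against 1087 and 1297 CPM on NCD, and C1qb had 2889 and 2538 CPM on MCD, against 1194 and 859.6 CPM on NCD, both without overlap and higher on MCD. C1qc had 1076 and 1151 CPM on MCD, against 1039 and 1251 CPM on NCD, and overlapped. Since C1q took part in forming this cluster, these levels are a description with no test. The whole macrophage-like class of that clustering, which also held a cluster of 172 and 141 MCD cells and 3 and 1 NCD cells, had 322 and 545 CPM of C1qa on MCD, against 1036 and 1286 CPM on NCD.

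Seen as a proportion, C1qb made up 56.4% and 52.5% of all C1q UMIs in the MCD libraries (4553 of 8076 and 5798 of 11049), against 35.2% and 28.4% in the NCD libraries (344 of 978 and 190 of 670). In the macrophage-like class of the finer clustering it was 56.2% and 49.0% on MCD, against 37.1% and 27.0% on NCD. C1qa made up 24.3% and 29.1% there on MCD, against 33.0% and 36.1% on NCD, and C1qc made up 19.5% and 21.8% on MCD, against 30.0% and 36.8% on NCD. In endothelial-like cells the C1qb share was 55.4% and 49.5% on MCD, against 27.3% and 28.8% on NCD. These shares rest on 65 and 301 C1q UMIs on MCD and 143 and 80 on NCD. Whether the endothelial-like cells made these transcripts themselves was not tested. In each of these sets both MCD libraries lay above both NCD libraries for C1qb, though an exact permutation test of 2 against 2 libraries cannot give a p below 0.333. MCD replicate 2 was counted on the same 28692 genes as the NCD libraries, and MCD replicate 1 on 27998 genes. Whether the unequal depth bears on the chain proportions was not tested.

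**Figure D3:**
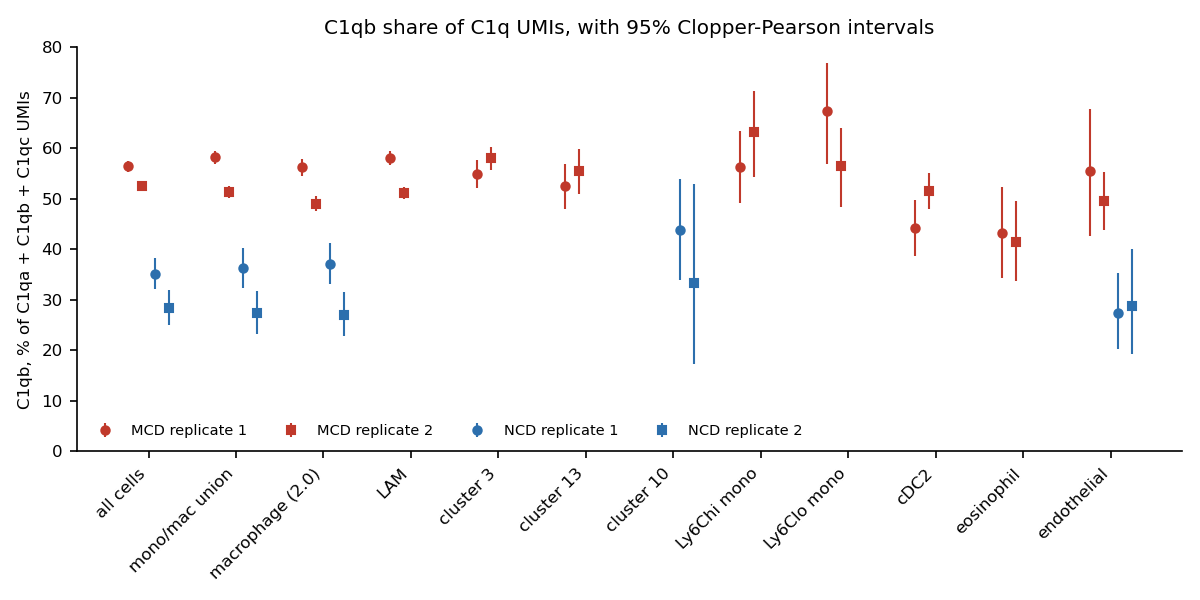
C1qb as a percentage of the C1qa, C1qb and C1qc UMIs in each cell set with at least 30 such UMIs, per library, with 95% Clopper-Pearson intervals that cover counting error only. The MCD libraries lie at 56.4% and 52.5% over all cells and the NCD libraries at 35.2% and 28.4%. Sets without an NCD point had under 20 cells or under 30 C1q UMIs in those libraries.

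The share of cells in which no C1q chain was found also differed in the macrophage-like class. After thinning to 1000 UMIs, all 3 chains were found in 12.7% and 17.8% of 142 and 129 MCD cells, against 13.4% and 27.7% of 82 and 65 NCD cells. The diets overlapped on this share. None of the 3 was found in 60.6% and 55.0% of MCD cells, against 34.1% and 36.9% of NCD cells. Among NK and innate lymphoid cells no chain was found in 93.1% and 95.8% on MCD, against 92.5% and 96.8% on NCD. At 1000 UMIs per cell a chain that is present can go uncounted. On this count both MCD libraries had more macrophage-like cells without a C1q UMI than either NCD library.

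The C1q-low classes gave small sums. cDC2-like cells, a class of conventional dendritic cell, had 25.6 and 34.8 CPM of C1qa on MCD, against 4.25 and 5.31 CPM on NCD, and C1qa rose (log2 fold change 2.07, SE 0.42, adjusted p = 0.00185). C1qb rose there as well (1.56, SE 0.44, adjusted p = 0.0156), at 32.1 and 62.3 CPM on MCD, against 10.6 CPM in both NCD libraries. Single cells carried much of this: 1 cell held 67 of the 114 C1qa UMIs in MCD replicate 1 and 1 held 75 of 220 in replicate 2. Without those cells the C1qa levels were 10.5 and 22.9 CPM.

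C3 was spread over many myeloid classes, and Ly6Chi-like monocytes held more of its UMIs than any other single named class. In the MCD libraries its level was highest in cluster 13, at 406 and 477 CPM, followed by cluster 3, at 292 and 328 CPM, and Ly6Chi-like monocytes, at 287 and 324 CPM, which overlapped each other. Lipid-associated macrophage-like cells (196 and 178 CPM) and Ly6Clo-like monocytes (163 and 192 CPM) overlapped below them. On NCD the unnamed cluster 10, led by Cxcl9, Gbp2 and Cxcl10 (173 and 106 cells), stood first with 294 and 273 CPM, ahead of Ly6Chi-like monocytes with 129 and 148 CPM. Ly6Chi-like monocytes held 43.9% and 45.2% of the C3 UMIs on MCD, against 24.1% and 33.6% on NCD. Endothelial-like cells held 2.48% and 4.79% of them on MCD, against 23.8% and 28.5% on NCD.

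C3 was higher on MCD in both monocyte classes and in endothelial-like cells. In the summed classes it stood at 249 and 275 CPM on MCD, against 104 and 117 CPM on NCD, and rose by 0.88 on the log2 scale (SE 0.11, adjusted p = 0.000404). In Ly6Chi-like monocytes, whose diets lay in separate clusters, C3 had 287 and 324 CPM on MCD, against 129 and 148 CPM on NCD, and rose by 0.66 (SE 0.13, adjusted p = 0.00254). In Ly6Clo-like monocytes, the patrolling type, C3 had 163 and 192 CPM on MCD, against 71.8 and 62.2 CPM on NCD, and rose by 1.10 (SE 0.19, adjusted p = 0.00229). Endothelial-like cells showed 129 and 125 CPM on MCD, against 86.7 and 66.5 CPM on NCD (log2 fold change 0.63, SE 0.18, adjusted p = 0.0192). The 2 MCD libraries lay above both NCD libraries in each of these classes. The same order of CPM held in cDC2-like, eosinophil-like, migratory dendritic and NK and innate lymphoid cells. CPM is scaled by library totals, and on that scale the median gene was itself higher on MCD, by 0.68, 0.13, 0.45 and 0.55 (log2). The share of all genes with this order is not given here. In migratory dendritic cells both NCD counts were 0. Their floor of 3 counts, 21.3 CPM, lay above the pooled MCD level of 19.8 CPM, so no rise can be read there. In the unnamed cluster 14 the libraries overlapped. In NK and innate lymphoid cells C3 had 37.5 and 44.3 CPM on MCD, against 22.3 and 21.5 CPM on NCD. These lymphoid levels rest on 8 and 6 UMIs on MCD, against 2 and 3 on NCD. In cDC2-like cells (0.30, adjusted p = 0.441) and in the macrophage-like class (0.51, adjusted p = 0.231) C3 did not pass. With the macrophage-like and lipid-associated classes of the first clustering summed, C3 rose by 1.13 (adjusted p = 0.00291), a call that ended when NCD replicate 1 was left out (adjusted p = 0.0932).

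Per cell, thinned to 1000 UMIs, a C3 UMI was found in 22.6% and 27.2% of Ly6Chi-like monocytes on MCD, against 13.3% and 12.8% on NCD. Without thinning the shares were 88.0% and 91.4% on MCD, against 22.0% and 24.6% on NCD. Thinned NK and innate lymphoid cells had a C3 UMI in 0% and 8.33% of 29 and 24 cells on MCD, against 2.5% and 3.23% of 40 and 62 cells on NCD. A count of 0 in 29 cells allows a share of up to 10.3%. The hepatocyte list moved in the same direction. The summed level of its 15 markers was 280.1 and 281 CPM in Ly6Chi-like monocytes on MCD, against 82.0 and 95.7 CPM on NCD. The list holds Trf, which followed Cfp over the classes (r = 0.792), and the part of Trf in the sum is not given here. Of those 15 markers 3 in each MCD library were at 0, against 11 and 9 in the NCD libraries. These counts cannot be compared between diets, since fewer UMIs leave more markers at 0. Median depth in these monocytes was 13529 and 12735 UMIs on MCD, against 1948 and 2004 on NCD. The part of these markers in the C3 result was not tested. In NCD replicate 1 the neutrophil list summed to 9511 CPM in Ly6Chi-like monocytes, against 192 CPM in NCD replicate 2, and the C3 call held with either left out.

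Cfb was a rare transcript, held mostly by a few clusters. On MCD its level was 88.4 and 47.0 CPM in cluster 13, 34.2 and 23.8 CPM in lipid-associated macrophage-like cells and 13.5 and 17.6 CPM in cluster 3. On NCD it was 36.3 and 26.1 CPM in cluster 10 and 5.49 and 0 CPM in macrophage-like cells. The clusters led by Cxcl9 and Cxcl10 were thus at the top in both diets. Unnamed clusters held 42.1% and 53.2% of the Cfb UMIs on MCD, against 60.7% and 77.8% on NCD.

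In the summed monocyte and macrophage classes Cfb had 197 and 115 UMIs on MCD, against 2 and 0 UMIs on NCD. The pooled ratio of CPM was 14.99, with a 95% counting interval of 4.11 to 124, and the difference passed the test (adjusted p = 0.0154). In Ly6Chi-like monocytes the counts were 51 and 38 UMIs on MCD, against 0 and 0 on NCD, at least 2.65-fold higher against a floor of 3 counts over both NCD libraries (adjusted p = 0.0324). The same hepatocyte list, Trf included, summed to 227 and 249 CPM in the summed classes on MCD, against 103 and 109 CPM on NCD. The part of these markers in the Cfb result was not tested. The order of the diets in Ly6Chi-like monocytes depended on the clustering. At Leiden resolution 0.5 Cfb had 3.62 to 4.85 CPM on MCD, against 4.98 to 11.3 CPM on NCD, so NCD was higher. The NCD cluster of this name held 1262 cells there, against 868 in the first clustering. In the finer clustering, and with complement genes kept in the clustering, both NCD libraries were at 0 CPM. The Cfb calls rest on few NCD counts. The first was lost without NCD replicate 2 (adjusted p = 0.105) and when the unnamed clusters were added to the sum (log2 fold change 0.88, adjusted p = 0.110), and the second was lost with DESeq2 (adjusted p = 0.0811).

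On MCD, Cfp, unlike C1q, was high in cDC2-like cells and Ly6Chi-like monocytes, but on NCD macrophage-like cells were highest for both. On MCD its level was 122 and 167 CPM in cDC2-like cells, 94.96 and 91.1 CPM in Ly6Chi-like monocytes, 62.6 and 83.2 CPM in lipid-associated macrophage-like cells and 43.0 and 48.4 CPM in Ly6Clo-like monocytes. On NCD it was 40.4 and 34.5 CPM in cDC2-like cells, 25.8 and 34.6 CPM in Ly6Chi-like monocytes and 2.05 and 8.58 CPM in Ly6Clo-like monocytes. Macrophage-like cells were the highest NCD class, at 87.8 and 138 CPM.

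Properdin transcripts rose in monocytes on MCD and were lower in macrophages, where the call depended on how the class was formed. Cfp rose in Ly6Chi-like monocytes (log2 fold change 1.13, SE 0.17, adjusted p = 0.00048), where 3 of the 7 genes were called, all higher on MCD (29.1% of 10030 genes were called and 15.0% were higher). It rose in Ly6Clo-like monocytes (2.81, SE 0.47, adjusted p = 0.00188), on 85 and 153 UMIs on MCD against 1 and 4 on NCD. Of the 5 genes that could be tested there 2 were called, both higher, where 25.1% of genes were called and 12.7% were higher. It also rose in cDC2-like cells, again between clusters of separate diets (1.33, SE 0.22, adjusted p = 0.000333), where 3 of 5 tested genes were called, all higher (30.2% of genes were called, 15.3% higher). In endothelial-like cells it rose by 1.05 (SE 0.21, adjusted p = 0.00374), and 2 of 6 tested genes were called, both higher (30.0% called, 16.4% higher). Both MCD libraries were also above both NCD libraries in NK and innate lymphoid cells, on 4 and 2 UMIs against 0 and 0.

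In the macrophage-like class of the finer clustering Cfp had 59.6 and 66.4 CPM on MCD, against 77.6 and 124 CPM on NCD, and fell by 0.90 on the log2 scale (SE 0.28, adjusted p = 0.0360). That call rests on 17 and 20 NCD UMIs and was lost with DESeq2 (adjusted p = 0.0943), with library totals (adjusted p = 0.120) and without NCD replicate 2 (adjusted p = 0.387). With the macrophage-like and lipid-associated classes of the first clustering summed, Cfp did not pass (-0.73, adjusted p = 0.0928). Nor did it with complement genes kept in the clustering (-0.54, adjusted p = 0.244), where the libraries overlapped. They also overlapped in the cluster of both diets. The diet difference itself differed between classes of the finer clustering: the macrophage-like minus Ly6Chi-like term was -2.06 (SE 0.32, adjusted p = 0.00019). For this term 2 of the 7 genes were called, both negative, where 3.91% of genes were called and 1.63% were negative. Between Ly6Clo-like and Ly6Chi-like monocytes 0 of the 5 genes tested by edgeR were called (3.65% of genes were), although 2 had an unadjusted p under 0.05. In the sum of the monocyte and macrophage classes Cfp stood at 80.7 and 81.8 CPM on MCD, against 25.6 and 35.8 CPM on NCD, and rose by 1.04 (SE 0.15, adjusted p = 0.00099).

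C3ar1, the C3a receptor, was found in granulocytes as well as macrophages. Basophil-like cells of NCD (34 and 73 cells) had 157 and 219 CPM, and macrophage-like cells of NCD had 104 and 189 CPM, which overlapped. Eosinophil-like cells had 76.7 and 62.3 CPM on MCD, against 119.5 and 94.3 CPM on NCD, and did not pass (log2 fold change -0.67, SE 0.46, adjusted p = 0.492). Lipid-associated macrophage-like cells had 36.5 and 59.4 CPM on MCD. Ly6Chi-like monocytes were low, at 3.90 and 3.85 CPM on MCD, against 2.25 and 0 CPM on NCD.

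In the macrophage-like class C3ar1 had 36.3 and 49.5 CPM on MCD, against 95.9 and 161 CPM on NCD. It fell by 1.80 on the log2 scale (SE 0.30, adjusted p = 0.000337), and both MCD libraries lay below both NCD libraries. Leaving out NCD replicate 2 ended this call (adjusted p = 0.0591). In the sum of the monocyte and macrophage classes C3ar1 stood at 11.6 and 13.1 CPM on MCD, against 14.1 and 16.3 CPM on NCD, with a log2 fold change of -0.66 (SE 0.23, adjusted p = 0.0457) that was lost with DESeq2 (adjusted p = 0.125) and with library totals (adjusted p = 0.305).

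**Figure D4:**
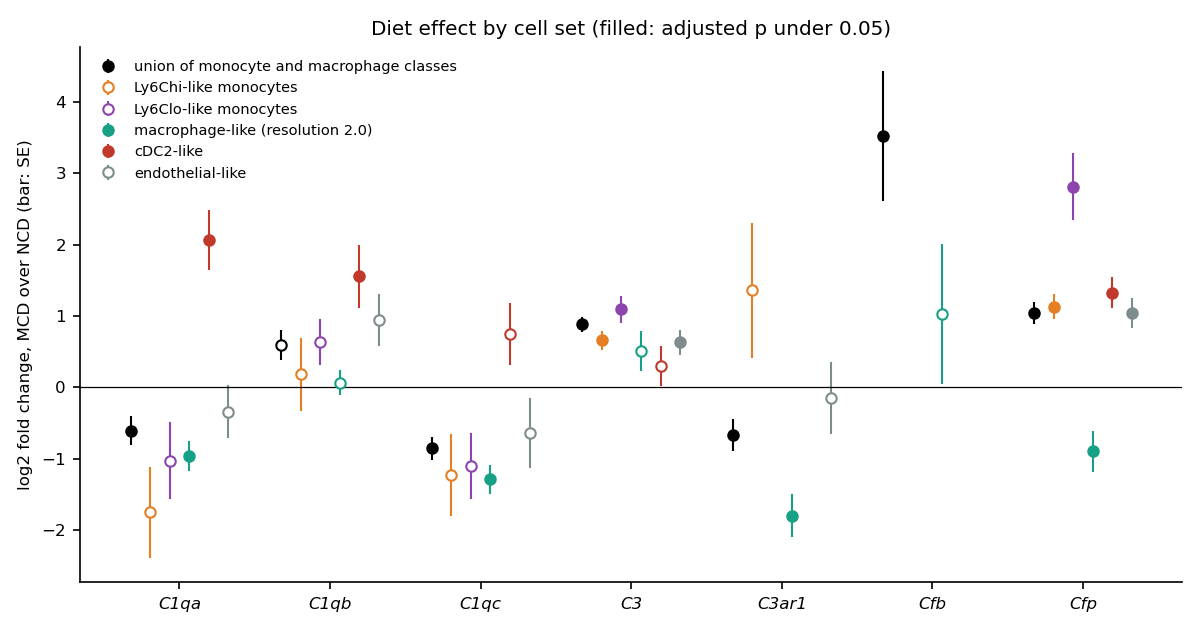
Log2 fold change of MCD over NCD with its SE (edgeR), by gene and cell set; filled points passed an adjusted p of 0.05. C3 and Cfp are above 0 in the summed classes (0.88 and 1.04) and in both monocyte classes, while in the macrophage-like class C1qa, C1qc, C3ar1 and Cfp are below 0 (-0.96, -1.29, -1.80 and -0.90); Cfb in Ly6Chi-like monocytes is not drawn because its NCD libraries were at 0.

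In eosinophil-like cells 0 of 5 tested genes passed in edgeR (4.25% of genes did), while 4 had an unadjusted p under 0.05. In migratory dendritic cells 0 of 3 passed (8.22% of genes did), and 1 had an unadjusted p under 0.05. DESeq2 gave no adjusted p for most of these genes and called none. C3 in eosinophil-like cells was 52.4 and 53.6 CPM on MCD, from 71 and 43 UMIs, against 1 and 0 UMIs on NCD (adjusted p = 0.1396).

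Genes whose levels followed the components over the 50 pairs of a class and a library were found by Pearson correlation of log2(CPM + 10) among 7570 genes, given as a description since classes of a library share depth. C1qa was closest to C1qc (r = 0.931) and C1qb (0.916), and the next gene for each chain was Axl, a receptor for apoptotic cells (0.764 to 0.822). C3 was closest to Lyz2, the myeloid lysozyme (0.883), followed by Tpd52 (0.859) and Fpr2, a formyl peptide receptor (0.851). Cfb was closest to Sod2, the mitochondrial superoxide dismutase (0.818), and Cfp to Trf, transferrin (0.792). C3ar1 was closest to Slc7a8 (0.838) and to Il4 (0.722), a cytokine of basophils.

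Of 48 other complement genes listed by role, 46 symbols were in the shared gene set, 2 of these (Itgam and C1s2) on more than 1 identifier and left out of the counts, and 19 could be tested in the summed monocyte and macrophage classes. Of these, 10 passed, 5 higher and 5 lower on MCD, where 38.2% of all genes tested passed, 20.1% higher and 18.0% lower. Their median log2 difference was -0.38, against 0.03 over all genes tested. Among the receptors, C5ar1, the receptor for C5a, rose by 0.88 (adjusted p = 0.00111), at 80.2 and 82.6 CPM on MCD, against 35.3 and 33.3 CPM on NCD. Vsig4, a receptor by which Kupffer cells bind C3 fragments, had 0.314 and 0.592 CPM on MCD, against 12.8 and 35.8 CPM on NCD, and fell by 6.05 (adjusted p = 7.08e-05). C5ar2 (-0.56, adjusted p = 0.0874) and the integrin chains Itgax (0.35, adjusted p = 0.252) and Itgb2 (-0.16, adjusted p = 0.266) did not pass.

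Among regulators, Cd55, which speeds the decay of convertases on the cell's own surface, had 3.20 and 5.27 CPM on MCD, against 21.8 and 31.4 CPM on NCD, and fell by 3.0 (adjusted p = 0.000156). Cd59a (-2.12, adjusted p = 0.0960) did not pass.

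In the lectin pathway Fcna, the pattern-binding ficolin A, fell by 4.04 (adjusted p = 0.000976), with 0.440 and 1.01 CPM on MCD, against 5.13 and 13.8 CPM on NCD. Fcnb was lower without passing (-2.40, adjusted p = 0.0691). Of the 6 tested C1 proteases and C1q-binding proteins 5 passed, where 38.2% of all genes did. C1rl rose by 2.57 (adjusted p = 0.0116), the endocytic receptor Lrp1 by 0.74 (adjusted p = 0.00116), C1qbp by 0.44 (adjusted p = 0.0490) and Cd93 by 0.42 (adjusted p = 0.0191). Calr, the chaperone calreticulin, was lower (-0.38, adjusted p = 0.0186), although its CPM overlapped, at 361 and 382 on MCD, against 349 and 399 on NCD. No terminal component passed the filter on low values, and of C2 and C4 only C4b did (-0.76, adjusted p = 0.334).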

How the data were processed

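Counts are UMIs per gene and cell in filtered matrices that the authors deposited, with Cell Ranger 3.0.2 and mm10 named in the submitters' processing notes and the single cell 3' v3 kit named in the labels. The 27998 genes shared by all 4 libraries were used; other genes held at most 0.119% of a library's UMIs. Barcodes with under 200 genes or over 10% mitochondrial UMIs were dropped. Complement genes were left out of the 2000 variable genes, and cells were clustered with scanpy 1.11.5 (30 components, 15 neighbours, Leiden resolution 1). Clusters were named from 24 marker lists, classes needed 20 cells in a library, and the macrophage and Kupffer lists were pooled after the clusters were seen. No doublet caller was run. UMIs were summed per library and class and tested with edgeR 4.0.16 (TMM, quasi-likelihood, Benjamini-Hochberg adjustment over all genes tested) in R 4.3.3, with DESeq2 1.42.0 as an alternative. On simulated sums of 10699 genes, 53.1% of 2-fold and 87.8% of 4-fold changes were recovered. Shares of cells carry exact Clopper-Pearson intervals at 95%, and floors of 3 counts cover counting error only. Genes, lists and classes were chosen with earlier results of these data known. The 7 components are always named; other complement genes are named by a minimum of 50 UMIs and size of change, and correlated genes by the 3 highest coefficients. Same-numbered libraries did not deviate together (r = 0.0419), so the numbers were not taken as pairs. Library pairs of 1 diet differed by more than sampling noise (chi-square per degree of freedom 13.4 on MCD and 3.04 on NCD). Promoters are from RefSeq and gene positions from the GRCm38 annotation. Of the listed complement genes, 1 is counted but not reported here by name.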

Additional observations from a re-analysis of the deposited data

Results flagged for a closer look

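The diet difference of 2 genes differed between macrophage-like cells of the finer clustering and Ly6Chi-like monocytes, by the class-by-diet term of edgeR. For Cfp the term was -2.06 (adjusted p = 0.00019), and it stayed between -2.11 and -1.80 with each library left out. For C3ar1 the term was -3.17 (SE 0.86, adjusted p = 0.0369). The C3ar1 term rests on 2 and 0 UMIs in the NCD Ly6Chi-like monocytes: it was -9.24 without NCD replicate 1 (adjusted p = 0.0501) and -1.54 without NCD replicate 2 (adjusted p = 0.520). The cause of either difference was not tested.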

How the results depend on the processing

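Of 636 values of the components under other settings, 535 kept their direction and their side of the threshold, 33 gained a call, 39 lost one and 29 changed sign; the causes were not tested. In the sum of monocyte and macrophage classes, at resolution 0.5, where the NCD macrophages joined the cDC2-like cluster, C1qa was 1.37, C1qc 0.95 and C3ar1 0.81 (log2). Without macrophage clusters they were 2.66, 2.26 and 3.12. C1qb was -3.15 without lipid-associated macrophage clusters and -0.20 with classes weighted equally, and gained a call with library totals (adjusted p = 0.00504). Removing the GC trend gave -1.28 for C1qa, 0.02 for C1qb and -1.44 for C1qc. C1qc over all cells was 0.00635 with library totals. C1qb in macrophage-like cells was -0.0808 when summed with the lipid-associated class and -0.43 with complement genes kept in the clustering. With a replicate block C1qb in the summed classes was 0.62 and passed (adjusted p = 0.000494), but the numbers pair no libraries, and the block called 4479 genes there, against 4156, and 145 in eosinophil-like cells, against 230.

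Leaving out 1 library moved C1qa (-0.0399 to 0.54) and C1qc (-0.40 to 0.23) over all cells, C1qb in Ly6Chi-like (-0.46 to 1.2) and macrophage-like cells (-0.11 to 0.39), C3 in cDC2-like cells (-0.0319 to 0.76), and C1qa (-1.13 to 0.18), C1qc (-1.53 to 0.45) and C3ar1 (-1.11 to 0.22) in endothelial-like cells across 0. C1qb in migratory dendritic cells ran from -0.58 to 6.69. The Ly6Clo-minus-Ly6Chi terms of C1qa (-0.48 to 1.84), C1qb (-0.54 to 1.36) and C1qc (-0.22 to 0.69) and the macrophage-minus-Ly6Chi terms of C3 (-0.499 to 0.027) and Cfb (-7.20 to 1.40) did so too. The same step gave 1111 to 1843 calls in Ly6Clo-like, 1518 to 2194 in cDC2-like, 1876 to 2724 in endothelial-like, 92 to 141 in eosinophil-like, 180 to 347 in migratory dendritic and 567 to 905 in macrophage-like cells, and 98 to 267 for the Ly6Clo term. DESeq2 called 999 genes in Ly6Clo-like, 1659 in cDC2-like, 1227 in endothelial-like, 71 in eosinophil-like and 683 in macrophage-like cells. Library totals called 4475 in cDC2-like cells (3980 higher, 495 lower).

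Mean CPM in lipid-associated cells was 181 (C1qa), 440.3 (C1qb) and 141 (C1qc) with complement genes kept in the clustering and 228, 486 and 179 at resolution 0.5. NCD macrophages had 1161 CPM of C1qa with complement genes kept, and at resolution 0.5 NCD C3 was 175 in Ly6Chi-like and Cfp 50.3 in cDC2-like cells. Thinned to 500 and 2000 UMIs, the MCD minus NCD share was 8.49 and 18.2 points for C3 and 4.14 and 10.8 for Cfp in Ly6Chi-like cells, and -3.17 and -24.3 for C1qb in macrophage-like cells. The NCD libraries, with few UMIs per class, limit what was detectable for C3ar1 and Cfb.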
